A study of Mus musculus with 4 samples.

Results

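The genes described here are 10 ligands and receptors of the VEGF and angiopoietin systems, Flt1, Kdr, Flt4, Nrp1, Nrp2, Tek, Tie1, Angpt2, Vegfc and Pgf, found by their symbols among 32286 features, of which all 10 were present. Their levels were followed across blood endothelial cells (BECs), lymphatic endothelial cells (LECs), stromal cells, mural cells and myeloid cells of the mouse distal jejunum, and in each mouse. Single-cell RNA-seq was performed on 4 adult mice, 1 library per mouse, after intestinal ischemia/reperfusion (I/R) injury, in which blood flow is stopped and then restored, with tissue taken 18.5 h after I/R. The 2 Control mice carried floxed alleles of both Forkhead box genes, Foxc1 fl/fl and Foxc2 fl/fl, without Cre. The 2 EC-Foxc-DKO mice carried Cdh5-CreERT2 in addition to Foxc1 fl/fl and Foxc2 fl/fl, so that tamoxifen deletes both genes in endothelial cells. The Cdh5 promoter drives Cre in BECs and LECs alike, and effects in other cell types of the EC-Foxc-DKO mice would arise in cells that keep both genes. Uninjured mice were not analysed here, so the values below are those of injured tissue in both genotypes, and the effects of the deletion and of Cre itself cannot be told apart.

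VEGF ligands act on 3 receptor tyrosine kinases. FLT1 (VEGFR1) binds VEGFA, VEGFB and PGF with high affinity and limits the signal that reaches KDR (VEGFR2), the main signalling receptor for VEGFA in blood vessels, while FLT4 (VEGFR3) is the receptor for VEGFC and VEGFD and is best known for lymphatic growth. The neuropilins NRP1 and NRP2 are co-receptors that bind VEGFs and class 3 semaphorins. Angiopoietins signal through TEK (TIE2), with TIE1 as its partner receptor, and ANGPT1 from perivascular cells stabilizes vessels while ANGPT2 from endothelial cells often opposes it.

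Of the 22679 barcodes in the 4 libraries, 5615 cells with at most 10% of mitochondrial UMIs were kept, between 348 and 2742 per mouse. The libraries stood apart in quality, with median mitochondrial shares between 14.98% and 54.0% of UMIs over all barcodes, and Control 2 had both the highest share and the fewest kept cells. Median depth of kept cells ran from 4254.5 to 19871 UMIs. The libraries shared 51 barcodes, none of them a kept BEC or LEC. Clusters were named from marker genes that include none of the 10 genes. BECs held 30 and 29 cells in Control 1 and 2 and 86 and 24 cells in EC-Foxc-DKO 1 and 2, and LECs held 6, 10 and 5 cells in Control 1, Control 2 and EC-Foxc-DKO 1 and 0 in EC-Foxc-DKO 2. In BECs all 14 endothelial identity genes were detected and 1 of 6 lymphatic genes, whose summed level was 1.07 UMIs per 1000000 UMIs of the class (CPM). In LECs 13 of the 14 endothelial genes and all 6 lymphatic genes were detected, the latter at a summed 19579 CPM. Stromal cells (Telocytes/Trophocytes) numbered 73 and mural cells (Myocytes/Pericytes) 45, but Control 1 and EC-Foxc-DKO 2 gave only 2 and 1 of the stromal cells, and EC-Foxc-DKO 2 only 2 of the mural cells. Macrophages numbered 378 and neutrophils 56. Of the kept cells 887 were left unnamed, and the values of the named classes leave them out.

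The deleted genes were too sparse to check the genotypes from these cells. Foxc1 had 1 and 5 UMIs in the BECs of Control 1 and 2 against 1 and 0 in EC-Foxc-DKO 1 and 2, and Foxc2 had 0 UMIs in all kept cells. Cre UMIs were found in neither Control library and numbered 3 in the kept cells of each EC-Foxc-DKO library, which follows the labels. Of these, 3 and 2 were in BECs.

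The promoter sequences of Flt1, Kdr and Tek are shown because these 3 receptors gave more than 80% of their UMIs in BECs, and so share a cell class while the rest of their patterns differ. Each run is 247 bases that end 4 bases before the transcription start in RefSeq (GRCm38.p6), 5′ to 3′ on the strand of the gene, and capitals mark GGAA or its reverse complement TTCC, the core letters of sites for ETS factors. Flt1 lies on the minus strand with its window at chr5:147726015-147726261, Kdr on the minus strand at chr5:75978459-75978705, and Tek on the plus strand at chr4:94739039-94739285.

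Flt1: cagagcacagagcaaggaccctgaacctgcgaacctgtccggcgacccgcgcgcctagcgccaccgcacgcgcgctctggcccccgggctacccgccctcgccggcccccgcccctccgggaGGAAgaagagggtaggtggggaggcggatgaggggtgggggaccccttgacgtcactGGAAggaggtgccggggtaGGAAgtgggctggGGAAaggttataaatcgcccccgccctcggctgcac

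Kdr: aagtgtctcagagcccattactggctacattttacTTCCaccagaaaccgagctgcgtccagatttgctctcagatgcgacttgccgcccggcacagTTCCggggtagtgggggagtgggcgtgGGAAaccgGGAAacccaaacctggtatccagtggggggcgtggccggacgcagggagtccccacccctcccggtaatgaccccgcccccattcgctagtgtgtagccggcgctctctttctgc

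Tek: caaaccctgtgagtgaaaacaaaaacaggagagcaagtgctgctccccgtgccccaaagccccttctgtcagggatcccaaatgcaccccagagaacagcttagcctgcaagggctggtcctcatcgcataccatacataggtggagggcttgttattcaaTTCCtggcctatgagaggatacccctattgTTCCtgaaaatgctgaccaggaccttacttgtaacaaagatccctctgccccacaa

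The Flt1 window was the richest in G and C (70.9%), followed by Kdr (61.5%) and Tek (51.0%). GGAA was found 4 times in the Flt1 window, 4 times in Kdr and 2 times in Tek, on either strand, but 93.1% of all 27025 RefSeq promoter windows of this length hold it, with a median of 3. The forkhead letters TGTTTAC were in none of the 3 windows and in 3.06% of all windows. The core of the hypoxia response element, ACGTG, was likewise in none of the 3 and in 16.4% of all, and the GATA letters AGATAA in none of the 3 and in 10.2% of all. An E-box, CANNTG, was found 0 times in Flt1, 1 time in Kdr and 2 times in Tek, and in 65.7% of all windows.

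Flt1 marked blood endothelium. Its level in BECs was 2175 and 1587 CPM in Control 1 and 2 and 1820 and 1835 CPM in EC-Foxc-DKO 1 and 2, a mean of 1854 ± 242 CPM (SD, n = 4 mice). The genotypes overlapped, with the EC-Foxc-DKO mice between the 2 Control mice. BECs held 97.6% of the 1742 Flt1 UMIs of all kept cells. A Flt1 UMI was found in 97.6% of BECs (165 of 169; exact 95% binomial interval 94.1% to 99.4%, counting error only), and in 80.7% once each cell was thinned to 1000 UMIs. In B cells, which should lack the gene, the share was 0.218%, with median depths of 4365 UMIs in BECs and 3248 UMIs in B cells. In LECs Flt1 had 5 UMIs, all in 1 cell of EC-Foxc-DKO 1, and in mural cells 8 of its 11 UMIs came from 1 cell of Control 1. The counts lie at the gene's 3′ end and do not separate membrane-bound FLT1 from its soluble form. Flt1 spans chr5:147561604-147726011.

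Kdr was shared by blood and lymphatic endothelium. BECs had 627 and 811 CPM in Control 1 and 2 and 748 and 841 CPM in EC-Foxc-DKO 1 and 2, a mean of 757 ± 94.8 CPM (SD, n = 4). LECs had 754, 1561 and 1078 CPM in Control 1, Control 2 and EC-Foxc-DKO 1, and the 2 classes overlapped over mice. A Kdr UMI was present in 86.4% of BECs, 76.2% of LECs and 0.145% of B cells. After thinning to 1000 UMIs these shares were 52.9% of BECs and 61.5% of LECs. Both Flt1 and Kdr were detected in 145 of the 169 BECs, and at least 1 of the 10 genes in 167. Outside endothelium Kdr had 4 UMIs in 3 of the 45 mural cells (6.67%, exact 95% binomial interval 1.40% to 18.3%) and 2 UMIs in macrophages. The gene lies at chr5:75932827-75978458.

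Flt4 was the receptor of lymphatic endothelium, and LECs held 79.4% of its 286 UMIs although they numbered 21 cells. Its level in LECs was 1299, 2166 and 1578 CPM in Control 1, Control 2 and EC-Foxc-DKO 1, a mean of 1681 ± 443 CPM (SD, n = 3). In BECs it was 81.8 and 75.8 CPM in Control 1 and 2 and 36.0 and 102 CPM in EC-Foxc-DKO 1 and 2, so that all LEC values lay above all BEC values. A Flt4 UMI was found in 95.2% of LECs and 27.8% of BECs, or 81.7% and 7.49% after thinning, and in 0 of 1379 B cells (at most 0.218% by a limit of 3 counts). Flt4 was at 0 UMIs in stromal and mural cells. It lies at chr11:49609263-49652739.

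The 2 co-receptors divided between the endothelial classes. Nrp1 was 648 and 673 CPM in BECs of Control 1 and 2 and 634 and 739 CPM in EC-Foxc-DKO 1 and 2 (673 ± 46.8, SD, n = 4), and had 0 UMIs in all 21 LECs, a count compatible with up to 14.3% of LECs having a UMI. Nrp2 was high in LECs, at 1802, 1020 and 1104 CPM in Control 1, Control 2 and EC-Foxc-DKO 1, against 116 and 169 CPM in BECs of Control 1 and 2 and 142 and 127 CPM in those of EC-Foxc-DKO 1 and 2. For each of the 2 genes the BEC and LEC values did not overlap over mice. Both genes were also expressed outside endothelium. Nrp1 gave 54.9% of its 1121 UMIs in BECs, 20.9% in macrophages and 10.3% in stromal cells, and Nrp2 gave 34.1% of its 646 UMIs in macrophages, 23.1% in LECs and 20.6% in BECs. Nrp1 is at chr8:128358604-128503363 and Nrp2 at chr1:62703285-62818695.

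In stromal cells, where only Control 2 (29 cells) and EC-Foxc-DKO 1 (41 cells) had more than 2 cells, Nrp1 was 289 and 192 CPM and Nrp2 was 189 and 94.2 CPM, with 20 of the 38 Nrp2 UMIs of Control 2 in 1 cell. Mural cells had 135, 88.1 and 55.8 CPM of Nrp1 and 59.8, 106 and 89.3 CPM of Nrp2 in Control 1, Control 2 and EC-Foxc-DKO 1. The macrophage values were 59.5, 89.1, 84.8 and 52.7 CPM for Nrp1 and 60.5, 60.3, 62.5 and 91.5 CPM for Nrp2 in Control 1, Control 2, EC-Foxc-DKO 1 and EC-Foxc-DKO 2. Nearly all of these UMIs came from the macrophage cluster led by the chemokine genes Ccl7, Ccl2 and Ccl12, with 229 of 234 for Nrp1 and 213 of 220 for Nrp2. The cells of that cluster were also deeper, with a median of 9524 UMIs against 968 UMIs in the cluster led by the complement genes C1qa and C1qb, and the Nrp1 levels of the 2 clusters overlapped over mice (53.9 to 92.1 CPM and 0 to 183 CPM). Among other classes with at least 20 UMIs, Nrp1 was 51.8 ± 27.8 CPM (SD, n = 4) in enteroendocrine cells, the hormone-producing cells of the epithelium, and 84.2 ± 37.9 CPM in enteric glia, and Nrp2 was 5.04 ± 4.61 CPM in T cells.

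The angiopoietin receptors had different spreads. Tek was 348 and 401 CPM in BECs of Control 1 and 2 and 333 and 382 CPM in EC-Foxc-DKO 1 and 2, and 84.8% of its UMIs were in BECs. LECs had 126, 112 and 78.9 CPM of Tek, below every BEC value, and stromal cells of Control 2 and EC-Foxc-DKO 1 had 69.7 and 26.9 CPM. Tek was at 0 UMIs in mural cells and macrophages. Tuft and M cells of the epithelium had 18 Tek UMIs in 14 of 66 cells, at 22.1 ± 24.6 CPM (SD, n = 4). Tie1 was 259 and 366 CPM in BECs of Control 1 and 2 and 366 and 195 CPM in EC-Foxc-DKO 1 and 2, and 293, 414 and 447 CPM in LECs of Control 1, Control 2 and EC-Foxc-DKO 1. The Tie1 values of BECs and LECs overlapped, whereas those of Tek did not. A Tek UMI was found in 71.0% of BECs and 42.9% of LECs, a Tie1 UMI in 74.0% and 71.4%, and neither gene in any of the 1379 B cells. Tek lies at chr4:94739289-94874976 and Tie1 at chr4:118471191-118490061.

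The LEC values of EC-Foxc-DKO 1 rested largely on its deepest cell, which held 78.0% of the 38032 UMIs of its 5 LECs. Without that cell, Kdr was 715 CPM, Flt4 1908 CPM, Nrp2 2027 CPM and Tie1 119 CPM, so that the Tie1 value depended on that cell while Flt4 and Nrp2 stayed high without it. The 5 Flt1 UMIs and the 3 Tek UMIs of these LECs were all in that cell. The deepest LEC of Control 1 held 50.6% of its UMIs and 33 of its 43 Nrp2 UMIs, and that of Control 2 held 37.5%. With the deepest cell of each mouse left out, Nrp2 was 847, 892 and 2027 CPM in Control 1, Control 2 and EC-Foxc-DKO 1, so that EC-Foxc-DKO 1 then lay above both Control mice instead of between them.

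**Figure D1:**
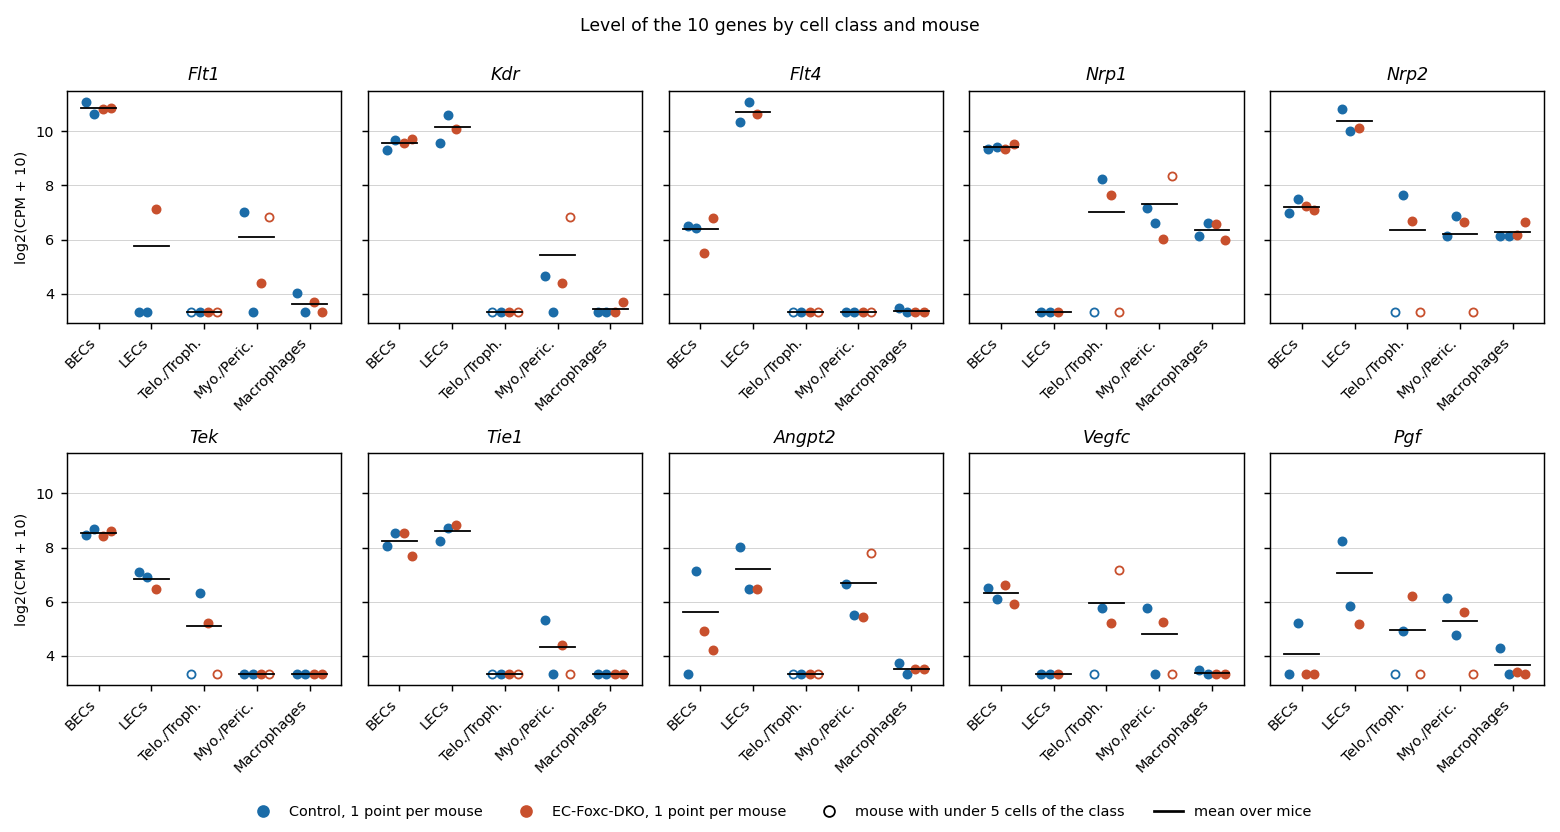
Level of the 10 genes in 5 cell classes, as log2(CPM + 10), with 1 point per mouse, Control in blue and EC-Foxc-DKO in red, open circles for mice with fewer than 5 cells of the class and a line at the mean CPM over mice. Flt1 and Nrp1 are high in BECs, Nrp1 is at 0 in LECs of all 3 mice and Flt1 in those of 2, Flt4 and Nrp2 are highest in LECs (1681 and 1308 CPM on average), and Kdr and Tie1 are high in both.

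The ligands had lower counts, between 104 and 236 UMIs each. Angpt2, an antagonist or context-dependent agonist of TEK, had 108 UMIs in all. BECs had 0 and 129 CPM in Control 1 and 2 and 20.2 and 8.50 CPM in EC-Foxc-DKO 1 and 2, from 0, 29, 9 and 1 UMIs in 0, 6, 8 and 1 cells. Of the 29 UMIs in Control 2, 16 were in 1 cell, and the Control mice spanned the whole range of the EC-Foxc-DKO mice. LECs had 251, 79.6 and 78.9 CPM, and mural cells had 89.7, 35.2, 33.5 and 211 CPM in Control 1, Control 2, EC-Foxc-DKO 1 and EC-Foxc-DKO 2, from 14 UMIs in LECs and 16 in mural cells, where the EC-Foxc-DKO 2 value is that of 2 UMIs in 2 cells. An Angpt2 UMI was found in 8.88% of BECs, 33.3% of LECs, 22.2% of mural cells and 0.218% of B cells. Angpt2 lies at chr8:18690263-18741562, and its promoter sequence is not shown.

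Vegfc, a ligand of FLT4 and KDR, was detected in BECs and not in the few LECs. BECs had 81.8 and 58.0 CPM in Control 1 and 2 and 87.7 and 51.0 CPM in EC-Foxc-DKO 1 and 2, and the genotypes overlapped. LECs had 0 UMIs in 21 cells, a count compatible with up to 14.3% of LECs having a UMI. A Vegfc UMI was found in 21.9% of BECs, or 6.91% after thinning to 1000 UMIs. Stromal cells of Control 2 and EC-Foxc-DKO 1 had 44.8 and 26.9 CPM, and mural cells of Control 1, Control 2 and EC-Foxc-DKO 1 had 44.9, 0 and 27.9 CPM. Vegfc was also detected at low levels in epithelium, with 39 UMIs in crypt cells (3.87 ± 0.71 CPM, SD, n = 4) and 60 UMIs in enterocytes (1.37 ± 1.13 CPM). Vegfc lies at chr8:54077606-54187096.

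Pgf, the placental growth factor that binds FLT1, was nearly absent from BECs, where its 6 UMIs were all in 1 cell of Control 2. LECs had 293, 47.8 and 26.3 CPM in Control 1, Control 2 and EC-Foxc-DKO 1, with a UMI in 42.9% of cells. Mural cells had 59.8, 17.6 and 39.1 CPM in the same mice, and stromal cells 19.9 and 63.9 CPM in Control 2 and EC-Foxc-DKO 1. Its 10 macrophage UMIs were in 2 cells. Enterocytes held 28 of its 104 UMIs (26.9%), but at 0.56 ± 0.88 CPM (SD, n = 4). Among the named classes Pgf was thus highest by mean level in LECs, on 11 UMIs, and then in mural and stromal cells rather than in BECs, with overlap between mice. An unnamed cluster of 9 cells, led by Slpi, Igfbp6 and Msln, had 10 Pgf UMIs in 6 cells. Its Pgf level was 42.9 CPM in Control 2 and 46.0 CPM in EC-Foxc-DKO 1. Pgf lies at chr12:85166635-85177790.

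The other ligands of the 2 systems were given beside these. Vegfa, the main ligand of KDR, had 4376 UMIs, of which 51.3% were in enterocytes and 10.3% in macrophages. The unnamed cluster led by Cubn, Slc5a12 and Pck1 held 530 Vegfa UMIs. Another unnamed cluster, led by Sectm1b, Ubd and Cyp3a11, held 466, each more than the macrophages. These cells are not counted among the enterocytes. The Vegfa level in enterocytes was 67.3 and 35.7 CPM in Control 1 and 2 and 59.0 and 57.7 CPM in EC-Foxc-DKO 1 and 2. Macrophages had 179, 63.2, 115 and 171 CPM in the same order, and 449 of their 452 UMIs were in the chemokine cluster. Enteroendocrine cells had 132 ± 54.8 CPM (SD, n = 4) and BECs 29.9 ± 14.6 CPM. Among the named classes, epithelium and macrophages thus carried the bulk of Vegfa, while most UMIs of its receptors Flt1 and Kdr were in BECs. Vegfb, a ligand of FLT1, was spread thinly, with 63.2 ± 31.2 CPM in mural cells, 39.2 ± 10.2 CPM in glia and 14.4 ± 5.27 CPM in BECs. Vegfd, the other ligand of FLT4, gave 71.9% of its 57 UMIs in stromal cells, at 69.7 and 90.8 CPM in Control 2 and EC-Foxc-DKO 1. Angpt1, the activating ligand of TEK, gave 73.5% of its 34 UMIs in mural cells, at 89.7, 106 and 72.6 CPM in Control 1, Control 2 and EC-Foxc-DKO 1. Stromal cells held 20.6% of the Angpt1 UMIs. Angpt4 gave 81.8% of its 11 UMIs in mural cells. Neutrophils had 0 UMIs of all 10 genes in 56 cells, which leaves room for at most 5.36% of cells with a UMI of each gene, and 10 UMIs of Vegfa.

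**Figure D2:**
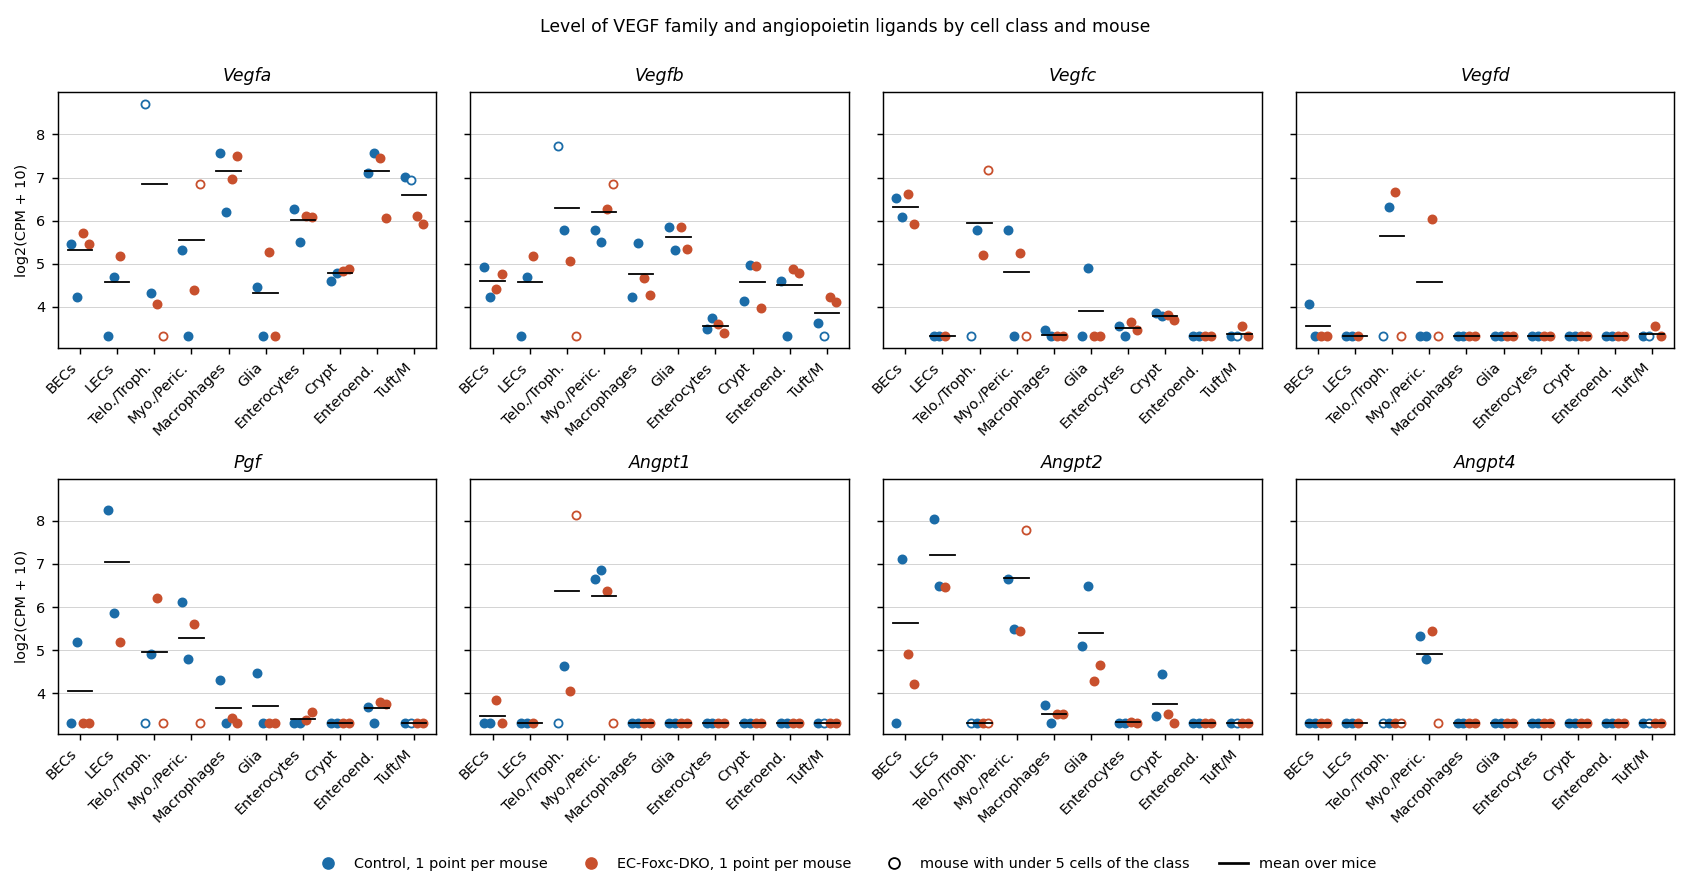
Level of VEGF family and angiopoietin ligands in 10 cell classes, as log2(CPM + 10), with 1 point per mouse, Control in blue and EC-Foxc-DKO in red, open circles for mice with fewer than 5 cells of the class and a line at the mean CPM over mice. Vegfa is widespread and high in macrophages and enteroendocrine cells (132 CPM on average in each). Vegfd lies mostly in stromal cells, and Angpt1 and Angpt4 mostly in mural cells. Angpt1 is also seen in stromal cells, at up to 269 CPM in a mouse with 1 stromal cell.

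BECs were then divided into 3 subclusters, which were made from these same counts, so their levels are a description with no test. Subcluster 1 held 72 cells (15, 14, 42 and 1 in Control 1, Control 2, EC-Foxc-DKO 1 and EC-Foxc-DKO 2) and was led by Esm1, Proser2 and Hcar1. Subcluster 2 held 52 cells (5, 4, 27 and 16) and was led by Ackr1, Madcam1 and Selp. It had 6 of 8 venous and 2 of 8 arterial markers. It is called venous-like below, although a finer resolution separated arterial-like cells from it. Subcluster 3 held 45 cells (10, 11, 17 and 7) and was led by Fscn1, Aqp7 and Gpihbp1. Subclusters 1 and 3 had too few markers of a fixed type to be named.

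The VEGF receptors followed these subclusters. Flt1 was 3298, 2712, 3151 and 5431 CPM in subcluster 1 in the same order of mice and 1337, 802, 881 and 1132 CPM in the venous-like cells, where the EC-Foxc-DKO 2 value of subcluster 1 is that of 1 cell. Kdr was 1016, 1356, 1378 and 2982 CPM in subcluster 1 and 514, 307, 351 and 386 CPM in the venous-like cells. Nrp1 was 954, 1314, 1208 and 2875 CPM in subcluster 1 and 489, 165, 183 and 280 CPM in the venous-like cells. All 3 genes were higher in subcluster 1 than in the venous-like cells in each of the 4 mice, with no overlap between mice. Subcluster 3 lay between subclusters 1 and 2 when its cells were pooled, at 1861 CPM of Flt1, 780 CPM of Kdr and 759 CPM of Nrp1.

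Flt4 and Tie1 showed the same separation by CPM. Median depth was 3134.5 UMIs per cell in subcluster 1 and 6109 UMIs in subcluster 2. A Flt4 UMI was found in 30.6% and 15.4% of their cells, and a Tie1 UMI in 73.6% and 73.1%. For Tie1 the separation was thus not seen in the share of cells. Flt4 was 104, 188, 63.6 and 213 CPM in subcluster 1 and 51.4, 35.4, 19.8 and 39.9 CPM in the venous-like cells. Tie1 was 415, 522, 509 and 319 CPM in subcluster 1 and 129, 295, 248 and 173 CPM in the venous-like cells. The lowest value of subcluster 1 lay above the highest of the venous-like cells for both genes, although the Flt4 values rest on 25 and 12 UMIs. The lowest Tie1 value of subcluster 1 is that of 3 UMIs in 1 cell of EC-Foxc-DKO 2. Tek, Nrp2 and Vegfc showed no such gap between subclusters 1 and 2. Tek was 425, 397 and 245 CPM in pooled cells of subclusters 1, 2 and 3. Nrp2 was 170 and 180 CPM in subclusters 1 and 2 and 66.5 CPM in subcluster 3. Over mice Nrp2 ran from 43.6 to 90.4 CPM in subcluster 3, on 19 UMIs. All these values lay below those of subcluster 1 (155 to 319 CPM) and subcluster 2 (120 to 295 CPM). Vegfc was 99.8 CPM in pooled venous-like cells and 40.5 CPM in pooled cells of subcluster 1, with 26 of the 40 venous-like UMIs from EC-Foxc-DKO 1, and in Control 2 it was higher in subcluster 1 (146 CPM against 70.8 CPM). At a finer resolution, chosen after seeing the data, subcluster 2 largely split into 19 cells with 6 of 8 arterial markers and 34 with 7 of 8 venous markers. The venous-like values above are therefore those of a mix. The arterial-like cells (2, 1, 8 and 8 in the order of mice) had 177 CPM of Vegfc when pooled and no Nrp2 UMI. The 34 venous-like cells (3, 3, 20 and 8) had 75.8 CPM of Vegfc and 248 CPM of Nrp2 when pooled. In Control 2, 20 of their 25 Nrp2 UMIs were in 1 cell. Their leading genes included Ptprc, Cd52 and Coro1a, which are genes of leukocytes. The gaps of Flt4 and Tie1 did not hold at this resolution. Flt4 fell to 62.7 CPM in subcluster 1 (EC-Foxc-DKO 1). It was 64.4 CPM in the 34 venous-like cells (Control 1) and 84.8 CPM in the arterial-like cells (Control 2). Tie1 fell to 319 CPM in subcluster 1 and reached 510 CPM in the arterial-like cells (Control 1). In the 34 venous-like cells Tie1 was at most 245 CPM. Angpt2 had between 5 and 24 UMIs in a subcluster and was not compared.

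**Figure D3:**
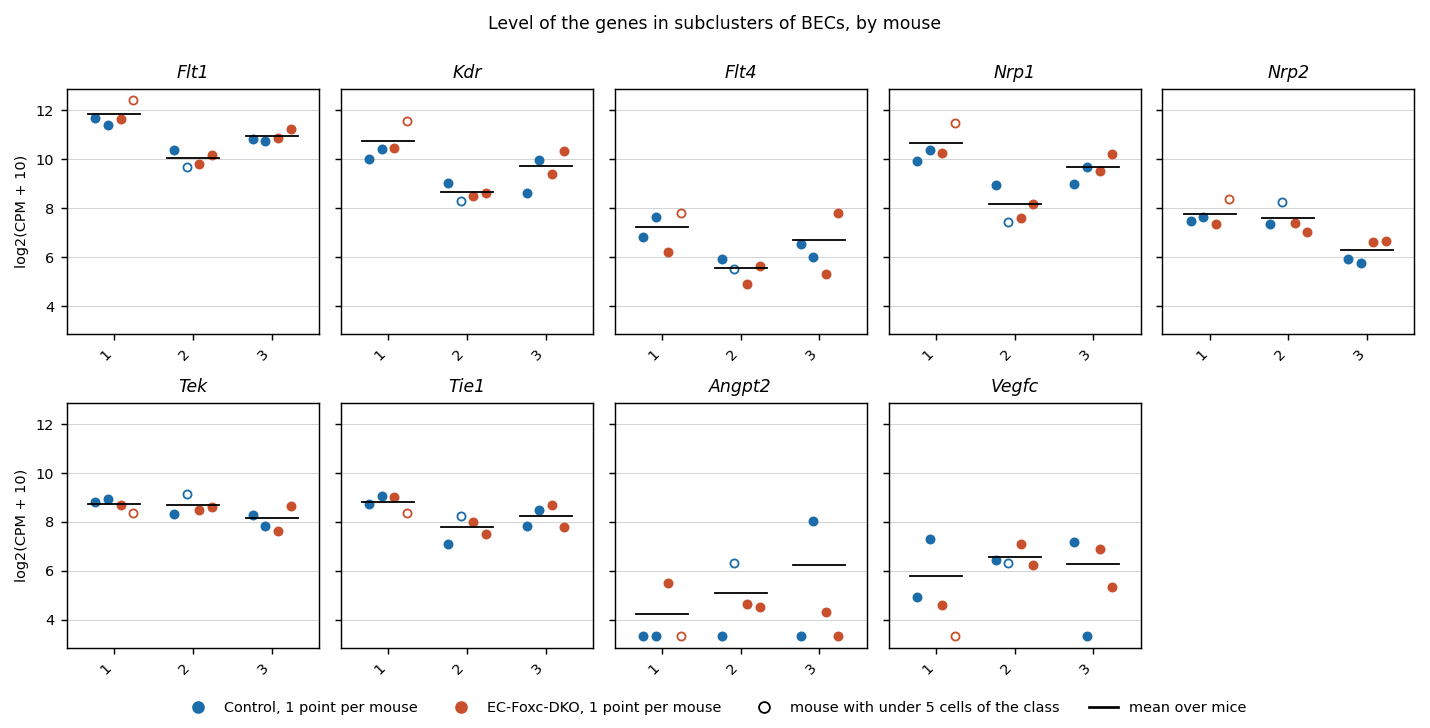
Level of 9 of the genes in the 3 subclusters of BECs, as log2(CPM + 10), with 1 point per mouse, Control in blue and EC-Foxc-DKO in red, open circles for mice with fewer than 5 cells of the subcluster and a line at the mean CPM over mice. For Flt1, Kdr, Nrp1, Flt4 and Tie1 all 4 points of subcluster 1 lie above all 4 points of subcluster 2. Tek, Nrp2, Angpt2 and Vegfc show no such gap between subclusters 1 and 2. The Nrp2 points of subcluster 3 lie below those of subclusters 1 and 2.

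No difference between genotypes in the 10 genes passed the test in BECs. The question was whether loss of Foxc1 and Foxc2 in endothelium changed the levels of these receptors and ligands after I/R. UMIs of each class were summed per mouse, and EC-Foxc-DKO was compared with Control by edgeR's quasi-likelihood test with Benjamini-Hochberg adjustment over all genes of the class. In BECs 8 of the 10 genes passed the filter on low counts, and 0 were called, where the share called over all 3504 genes tested was 0%. At an unadjusted p under 0.05 the test gave 103 genes, none of them among the 8, and DESeq2 called 1 gene. Fewer transcripts per cell and fewer cells of a subtype within BECs cannot be told apart in these sums, and subcluster 1 gave 1 of 24 BECs in EC-Foxc-DKO 2 against 42 of 86 in EC-Foxc-DKO 1.

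The estimates were close to 0 for the receptors with the highest counts. The log2 fold change of EC-Foxc-DKO over Control was −0.05 for Flt1 (95% interval −0.60 to 0.50), 0.13 for Kdr (−0.50 to 0.75) and 0.04 for Nrp1 (−0.58 to 0.66). For Tek it was −0.09 (−0.79 to 0.61), for Tie1 −0.12 (−0.97 to 0.74) and for Nrp2 −0.10 (−0.89 to 0.70). In this main fit the intervals of these 6 genes leave out a change of 2-fold or more. Over the main fit and 13 alternatives, the Tie1 estimate reached −0.71, with a standard error (SE) between 0.37 and 0.51. The SE of Nrp2 reached 0.61. The limit on a 2-fold change therefore holds for the main fit and not for every alternative. Flt4 was at −0.49 (−1.66 to 0.68) and Vegfc at 0.15 (−0.82 to 1.12), whose intervals are wider and include a 2-fold change. The edgeR adjusted p was 0.999 for each of the 8 genes, and for each gene the Control and EC-Foxc-DKO mice overlapped. The median of the 8 fold changes was −0.07, beside 0.00 over all genes tested.

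Angpt2 and Pgf did not pass the filter. With no filter Angpt2 in BECs had a log2 fold change of −2.02 (SE 0.63) and an edgeR adjusted p of 0.183. This value rested on Control 2, since Control 1 had 0 UMIs. Pgf was at −4.89 (SE 2.06), with an edgeR adjusted p of 0.980, and rested on the 6 UMIs in 1 cell of Control 2. In that fit 0.494% of 13358 genes were called and none of the 10 was among them.

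In LECs 4 of the 10 genes were tested and 0 were called, where 1.97% of 863 genes were called. The LEC fit had 1 EC-Foxc-DKO mouse, which is assumed to vary like the Control mice. Lymphatic and stress genes were unequal in it. All 4 lymphatic genes tested were negative, with a median log2 fold change of −1.09. All 3 stress genes tested were positive, with a median of 4.11. The part of these differences in the values of the members was not tested. The log2 fold change was −0.29 for Kdr (95% interval −1.30 to 0.72), −0.31 for Flt4 (−1.29 to 0.66), −0.52 for Nrp2 (−1.53 to 0.49) and 0.14 for Tie1 (−1.02 to 1.30), with edgeR adjusted p between 0.842 and 0.948. The Nrp2 value rests on the deepest cells described above, without which the order of the mice turned. The deepest LEC of EC-Foxc-DKO 1 also held 16 of its 17 Tie1 UMIs and 35 of its 41 Kdr UMIs. With the deepest cells left out, Tie1 was 339, 459 and 119 CPM in Control 1, Control 2 and EC-Foxc-DKO 1. Kdr was then 932, 1504 and 715 CPM, so that EC-Foxc-DKO 1 lay below both Control mice for both genes. In stromal cells, where 0.432% of 1852 genes were called, only Nrp1 was tested, at −0.60 (−2.52 to 1.33), and it was not called. In macrophages, where 0% of 6963 genes were called by edgeR, 196 had an unadjusted p under 0.05 and DESeq2 called 3, Nrp1 was at −0.09 (−0.98 to 0.80) and Nrp2 at 0.30 (−0.49 to 1.09). Both Nrp2 values of the EC-Foxc-DKO mice lay above both Control values in macrophages, by 62.5 against 60.5 CPM at the nearest. The share of all genes with such an order was not counted, and the edgeR adjusted p of Nrp2 was 0.9998. No member passed the filter in mural cells, where 0% of 1108 genes were called by edgeR and 59 had an unadjusted p under 0.05, nor in neutrophils, where 5.01% of 979 genes were called in a fit with 1 Control mouse, since Control 2 had 0 neutrophils.

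**Figure D4:**
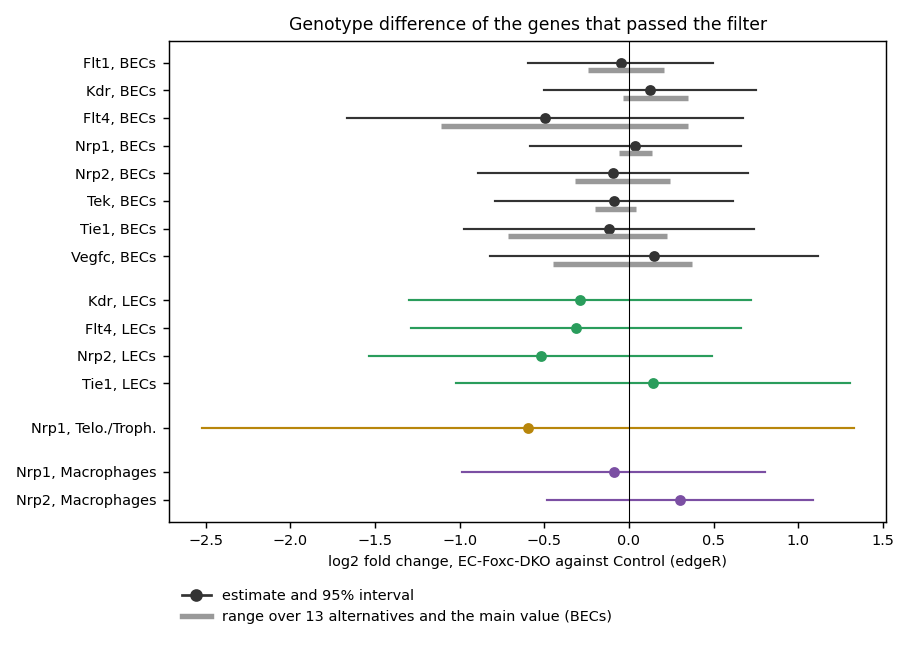
Log2 fold change of EC-Foxc-DKO over Control (edgeR) for each gene that passed the filter on low counts, by class, with 95% intervals as thin lines and, for BECs, the range over 13 alternative settings and the main value as a grey bar. Every interval crosses 0, and the narrowest are those of Flt1, Kdr and Nrp1 in BECs.

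Genes around the 2 systems gave the same count of calls in BECs. Of 18 other ligands and partners 5 were tested and 0 were called, against 0% of all genes. Ptprb, the phosphatase that restrains TEK, was 2195 and 2189 CPM in Control 1 and 2 and 2072 and 1342 CPM in EC-Foxc-DKO 1 and 2, with a log2 fold change of −0.36 (95% interval −0.95 to 0.23). Both EC-Foxc-DKO values lay below both Control values, but the share of all genes with such an order was not counted, so nothing is drawn from it. The semaphorin gene Sema3g was at −0.01, Sema3f at 0.50 and the plexin genes Plxnd1 and Plxna2 at −0.19 and 0.01, and none of the 5 passed the edgeR test (adjusted p of 0.999 each).

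Of 18 tip cell and VEGF response genes, which rise where VEGFA signals or endothelial sprouts form, 10 were tested in BECs, 0 were called, and their median log2 fold change was 0.07. Of these 10 genes 6 were positive and 4 negative. The negative ones were Aplnr (−0.85), Cxcr4 (−0.58), Hlx (−0.46) and Kcne3 (−0.17), all with lower Control levels than the 5 genes named next. The 5 with the highest Control level were Igfbp3 (0.72, 95% interval −0.12 to 1.56), Esm1 (0.18, −0.56 to 0.91), Nos3 (0.04, −0.70 to 0.78), Rgcc (0.60, −1.09 to 2.30) and Dll4 (0.11, −0.89 to 1.11). All 5 intervals include 0. Nos3, the endothelial nitric oxide synthase, varied least of these over mice (150 ± 4.69 CPM, SD, n = 4). Of 14 endothelial identity genes 13 were tested in BECs, 0 were called, and the median was −0.06, with Pecam1 at −0.10, Egfl7 at 0.11, Cdh5 at −0.06, Eng at 0.19 and Esam at −0.01.

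Markers of other cells and of stress were unequal between BEC libraries. Stress genes (7 of 7 tested, 0 called by edgeR, 4 at an unadjusted p under 0.05) were all positive in EC-Foxc-DKO, with a median log2 fold change of 0.90 and summed levels of 1691 and 3357 CPM in Control 1 and 2 and 3077 and 6568 CPM in EC-Foxc-DKO 1 and 2. Mural markers summed to 6.82, 152, 438 and 467 CPM in Control 1, Control 2, EC-Foxc-DKO 1 and EC-Foxc-DKO 2, higher in both EC-Foxc-DKO mice, and none of the 4 was at 0 in BECs. Immune markers summed to 1861, 0, 189 and 195 CPM in the order of mice above, with 1 of 5 at 0, epithelial markers to 1493, 232, 829 and 442 CPM, and erythroid markers to 88.6, 4.46, 3481 and 8.50 CPM. Stromal markers reached at most 25.5 CPM and glial markers at most 8.50 CPM. The part of these in the fold changes of the 10 genes was not tested, other than by leaving out the 11 BECs with a Ptprc UMI (1 in Control 1, 8 in EC-Foxc-DKO 1 and 2 in EC-Foxc-DKO 2). Flt1 was then at 0.022, and none of the 8 genes of the main test was called.

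The genes most like each of the 10 genes in their pattern across classes were also listed. Over 58 sums of a mouse and class with at least 20000 UMIs, from 17 classes, the 3 genes with the highest Pearson correlation of log2(CPM + 10) with Flt1 were Palmd (0.96), Plvap (0.96) and Gja5 (0.96). For Kdr they were Emcn (0.99), Erg (0.99) and Tie1 (0.98), and for Tie1 they were Erg (0.99), Emcn (0.99) and Sox18 (0.99). Flt4 was followed by Gpr182 (0.99), Klhl4 (0.95) and Col23a1 (0.95), Tek by Shank3 (0.92), Fgd5 (0.92) and Cyp26b1 (0.91), and Vegfc by Ly6c1 (0.92), Dkk2 (0.91) and Jam2 (0.91). The genes with a broader range had lower values, with Nrp1 followed by Acvrl1 (0.86), Plcb1 (0.84) and Trim47 (0.83), and Nrp2 by Sult1a1 (0.87), Cavin2 (0.87) and Gja1 (0.86). Angpt2 was followed by Timp3 (0.85), Nr2f2 (0.84) and Galnt18 (0.84), and Pgf by Prelp (0.89), Gucy1a1 (0.82) and Adamtsl1 (0.82). The sums of a mouse share a library, many sums are at 0 for an endothelial gene, and depth differs between sums, so these values describe likeness of pattern only.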

How the data were processed

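Single-cell RNA-seq libraries of the distal jejunum were used, from 2 mice per genotype. The authors deposited whole-number UMI counts per gene and barcode, made with Cell Ranger (4.0.0 per the submitters' processing notes, whereas the methods name another version) against mm10 with a Cre sequence added, and not normalized. A joined count table was used for its list of 18407 genes only. Cells with over 10% mitochondrial UMIs were left out here. Counts were clustered with scanpy 1.11.5 (15 principal components, Leiden resolution 0.5). To be named, a cluster needed at least 3 detected markers of a type. A marker of that type also had to be among its 10 leading genes, with no other type having more there. Clusters that failed this were left unnamed. Scrublet marked 13 of 5615 cells, too few to have worked, so the 292 cells (5.20%) with the highest scores were left out only as an alternative. Counts were summed per mouse and class and tested with edgeR 4.0.16 in R 4.3.3 (filterByExpr, TMM, quasi-likelihood, adjusted p threshold 0.05), the mouse being the replicate, and DESeq2 1.42.0 was an alternative. The edgeR script was tested on simulated data. The text names the 10 genes in the endothelial, stromal, mural and myeloid classes and where another class had at least 20 UMIs, the tested genes of each list with the highest Control level in BECs (up to 5), and the 3 genes most like each member. Tuft and M cells for Tek, unnamed clusters for Vegfa and Pgf, and the negative tip cell genes are given beside this rule. The members and lists were chosen with earlier results of these data known. Intervals and limits of counts and shares cover counting error only. Levels were compared between classes for the same gene, not between genes. Promoter sequences come from RefSeq, where 9 of 10 members matched by symbol, and gene coordinates from GENCODE on GRCm38.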

Additional observations from a re-analysis of the deposited data

How the results depend on the processing

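No member that passed the filter of the main test in a class was called there under any alternative. The other members were followed only in the fit with no filter, where none was called. Of 104 alternative fold changes in BECs 88 kept their sign and 16 reversed, and of 62 in the other classes 56 kept it and 6 reversed. In BECs Flt1 (log2) reversed to 0.095 at a mitochondrial limit of 20%, 0.025 with the highest doublet scores left out and 0.022 without the cells with a Ptprc UMI, the last chosen after seeing the data. Vegfc reversed to −0.041, to −0.028 and, with a replicate block, to −0.013. The 20% limit gave 0.081 for Flt4 and −0.067 for Tie1 in LECs, and leaving out doublets gave 0.0014 for Nrp1 in macrophages. Leaving out a mouse gave ranges in BECs of −0.24 to 0.20 for Flt1, −0.033 to 0.35 for Kdr, −1.11 to 0.35 for Flt4, −0.056 to 0.13 for Nrp1, −0.31 to 0.24 for Nrp2, −0.17 to 0.041 for Tek, −0.71 to 0.22 for Tie1 and −0.45 to 0.37 for Vegfc, and for Nrp1 −1.13 to 0.0050 in stromal cells and −0.49 to 0.18 in macrophages.

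The number of genes called over all genes moved more. In BECs it was 0 in the main test, 1 with DESeq2, 66 with no filter and 26 to 69 with a mouse left out. In LECs (17) it was 1 with DESeq2, 6 with no filter, 10 at the 20% limit and 1 without doublets. In stromal cells (8) it was 5 with DESeq2's size factors, 0 with DESeq2, 0 with no filter, 3 at the 20% limit, 4 without doublets, 0 at a clustering resolution of 1.0, 2 with the members and lists kept out of the clustering and 0 to 3 with a mouse left out. In mural cells (0) it was 4 with no filter and 0 to 38 with a mouse left out, in macrophages (0) 3 with DESeq2, 116 with no filter and 0 to 48 with a mouse left out, and in neutrophils (49) 0 with DESeq2's size factors, 16 with DESeq2, 5 at the 20% limit and 4 without doublets. With a replicate block it was 3 in BECs, 3 in mural cells, 0 in stromal cells and 0 in macrophages. By their labels the mice share only a number. The correlation of the deviations of mice with the same number was −0.012 over 3504 genes in BECs. That value covers BECs only, and whether mice with the same number shared a batch was not tested. The block was not possible in LECs and neutrophils, nor was leaving out a mouse. Causes were not tested. Of 195 alternative levels of the members 191 moved by less than the SD over mice; by the mean of the cells' own CPM, Flt1 was 2171, Kdr 914 and Nrp1 843 in BECs, and Pgf was 57.1 in mural cells at the 20% limit. Vegfc reached 177 CPM in a BEC subcluster at the finer resolution. The 21 LECs and the 2 or fewer stromal cells of 2 mice limit what could be tested there.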

Other observations

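Tie1 and Pgf were also counted in epithelium. Enterocytes held 107 Tie1 UMIs, 22.5% of the total, at 1.22 and 2.30 CPM in Control 1 and 2 and 0.80 and 5.99 CPM in EC-Foxc-DKO 1 and 2, far below the 297 ± 84.2 CPM (SD, n = 4) of BECs. Of these UMIs 92 came from the enterocyte cluster led by 2610528A11Rik, Sprr2a3 and Gml2, where 21.2% of 274 cells had one, and 81 of the 107 were in EC-Foxc-DKO 2. Pgf had 28 UMIs in the same cluster, 25 of them in EC-Foxc-DKO 2, 3 in 1 cell of EC-Foxc-DKO 1 and 0 in both Control mice. Both genes thus came mostly from 1 mouse, and a difference between genotypes was not tested. Tie1 had 0 UMIs in 1379 B cells.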
